A study of Mus musculus with 12 samples.

Results

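Cyclic AMP (cAMP) signalling in kidney epithelial cells was followed here through 45 listed genes: 5 receptors, 4 G protein alpha subunits, 9 adenylyl cyclases, 15 phosphodiesterases, 6 subunits of protein kinase A (PKA), 2 Epac exchange factors, 2 factors of the cAMP response element binding (CREB) family and 2 A-kinase anchoring proteins. The rule for the members uses names and roles and no measured value, but the members were chosen with earlier results of these data known. Of the 45 genes, 43 had a row among the 47642 genes of the table (Gnai3 and Pde2a were not analysed here). Over all 12 libraries, 29 members reached a mean of 1 normalized count or more and were tested, as part of the 18552 genes that did so. The remaining 14 rows were under that mean, and Adcy8, Pde1b, Pde7b and Rapgef4 were listed at 0 in every library.

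cAMP is made from ATP by adenylyl cyclases, which are switched on by receptors through the stimulatory G protein alpha subunit (Gnas) and held back through the inhibitory subunits (Gnai genes). Phosphodiesterases break cAMP down, and because they differ in place and affinity they also set how far the signal spreads. The signal is read by PKA, whose regulatory subunits release the catalytic subunits when they bind cAMP, by the Epac exchange factors of the small GTPase Rap1, and in the nucleus by CREB. In the collecting duct the pathway is best known for carrying the vasopressin signal to the water channel aquaporin-2, and raised cAMP is a known feature of polycystic kidney disease, in which Pkd1 (polycystin-1) or Pkd2 (the channel TRPP2) is lost.

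RNA was sequenced from mouse inner medullary collecting duct cells (mIMCD3, an epithelial line from mice that carried the early region of a simian virus as a transgene), in 4 libraries each of wild-type cells (Wt), Pkd1-/- cells and Pkd2-/- cells. Each mutant was 1 clone, so that an effect of the deleted gene and any other property of that clone cannot be told apart. The RNA was taken 4 days after confluency, the labels name no drug or hormone, and the libraries of a genotype came from separate culture dishes, 4 of which were selected out of 6 by RNA purity. The p-values therefore measure the spread between dishes.

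The Pkd1-/- clone carried the deletions chr17:24550055-24594963 and chr17:24550106-24594903, and the Pkd2-/- clone carried chr5:104478281-104490878 (GRCm38). Pkd1 stood at 682 to 883 normalized counts in Wt, at 30 to 49 in Pkd1-/- and at 1057 to 1492 in Pkd2-/- libraries. The Pkd2 count was 3971 ± 451 in Wt and 3986 ± 124 in Pkd2-/- cells (SD, n = 4 each). The Pkd2 deletion takes 14.7% of the annotated exon bases, so this count of the whole gene does not check the label. Normalized totals were 25966273 to 28027792 per library, from an estimated 23188147 to 30325429 reads. The 16 epithelial and collecting duct markers, of which 13 were tested, summed to 68107 to 78867 normalized counts. Epithelial genes such as Cdh1, Epcam and Krt18 contribute to this sum. Of the markers of principal cells, the water channels Aqp2 and Aqp4 were at 0 in all libraries and Aqp3 was at 6 or less. Others were present in Wt, among them the transcription factor gene Tfcp2l1 (1342 to 1698 normalized counts), the sodium channel subunit genes Scnn1g (876 to 988) and Scnn1a (68 to 80), Gata3 (176 to 248) and Hsd11b2 (74 to 84). Of the same list, the sodium channel subunit gene Scnn1b was at 7 or less and Slc14a2 at 1 or less in every library. Scnn1g was called lower in both mutants, at 303 ± 45.4 in Pkd1-/- and 255 ± 9.11 in Pkd2-/- cells (SD, n = 4). Gata3 stood at 42 to 56 in Pkd1-/- and at 294 to 430 in Pkd2-/- libraries. Sums of the 5 endothelial markers were at most 10. Sums of the 5 intercalated cell markers differed between genotypes, at 29 to 82 in Wt, 437 to 547 in Pkd1-/- and 3 to 5 in Pkd2-/- cells. Atp6v1b1 alone held 29 to 76, 437 to 544 and 0 to 2 of these. Sums of the 6 proximal tubule markers were 692 to 790, 584 to 672 and 1017 to 1499 in the same order. Within them Lrp2 held 474 to 555, 25 to 63 and 738 to 1217, and Aqp1 held 204 to 245, 540 to 619 and 259 to 277. Sums of the 6 fibroblast markers were 32 to 58, 89 to 102 and 15 to 141, and those of the 5 leukocyte markers 55 to 74 over all libraries. In RNA of whole dishes, fewer cells of a type and less RNA per cell cannot be told apart, and the part of these markers in the results was not tested.

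Cyclases or phosphodiesterases made up 3 of the 4 cAMP genes called in Pkd1-/- and 7 of the 9 in Pkd2-/- cells. Of the 29 members tested, 6 were cyclases and 7 phosphodiesterases, and no test was made of these shares. A gene was called where the limma adjusted p, taken over all genes tested, was under 0.05 and the log2 fold change was at least 1 in size. In Pkd1-/- cells 4 of the 29 tested members were called (13.8%, against 6.24% of all genes tested), 1 higher (background 2.96%) and 3 lower (background 3.28%). In Pkd2-/- cells 9 of 29 were called (31.0%, against 9.62% of all genes), 5 higher (background 3.24%) and 4 lower (background 6.38%). Between the mutants 6 of 29 were called (20.7%, against 11.8% of all genes), with 5 higher (background 4.53%) and 1 lower in Pkd2-/- (background 7.23%). The members' shares were not tested against the background. The phosphodiesterase gene Pde4d was called higher in each mutant, and Gnai1, Adcy1 and Pde8a were called lower in each. Gnai1 entered the test only through its counts in Wt, and without it 3 members were called in Pkd1-/- and 8 in Pkd2-/- cells. Since both comparisons use the same Wt libraries, these 2 sets of values are not independent. Of all genes tested, 386 (2.08%) were called in both mutants with matching direction.

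Without the fold threshold, 12 of 29 members passed in Pkd1-/- (41.4%, against 27.1% of all genes), 7 of them higher (background 13.6%) and 5 lower (background 13.5%). In Pkd2-/- 16 passed (55.2%, against 42.3%), 9 higher (background 20.0%) and 7 lower (background 22.3%). Between the mutants 18 differed (62.1%, against 46.3%), 9 higher (background 21.9%) and 9 lower in Pkd2-/- (background 24.3%). The median log2 fold change over the tested members was 0.06 in Pkd1-/- and -0.05 in Pkd2-/- cells, beside 0.01 and -0.01 over all genes tested. The libraries of Pkd1-/- and Wt did not overlap for 13 members (background 27.1%), 7 higher (background 13.5%) and 6 lower (background 13.6%). Those of Pkd2-/- and Wt did not overlap for 14 (background 37.2%), 8 higher (background 17.4%) and 6 lower (background 19.8%), and those of the mutants for 14 (background 41.8%), 6 higher (background 19.8%) and 8 lower in Pkd2-/- (background 22.0%). Gnai1, which entered the test only through Wt, is counted among the lower members of both comparisons with Wt, by p and by overlap. It is no support in these counts either. Several called members were weakly expressed. When the minimum mean was raised to 10, 25 members remained, of which 2 were called in Pkd1-/- and 7 in Pkd2-/- cells, where the background was 5.36% and 8.76%.

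**Figure D1:**
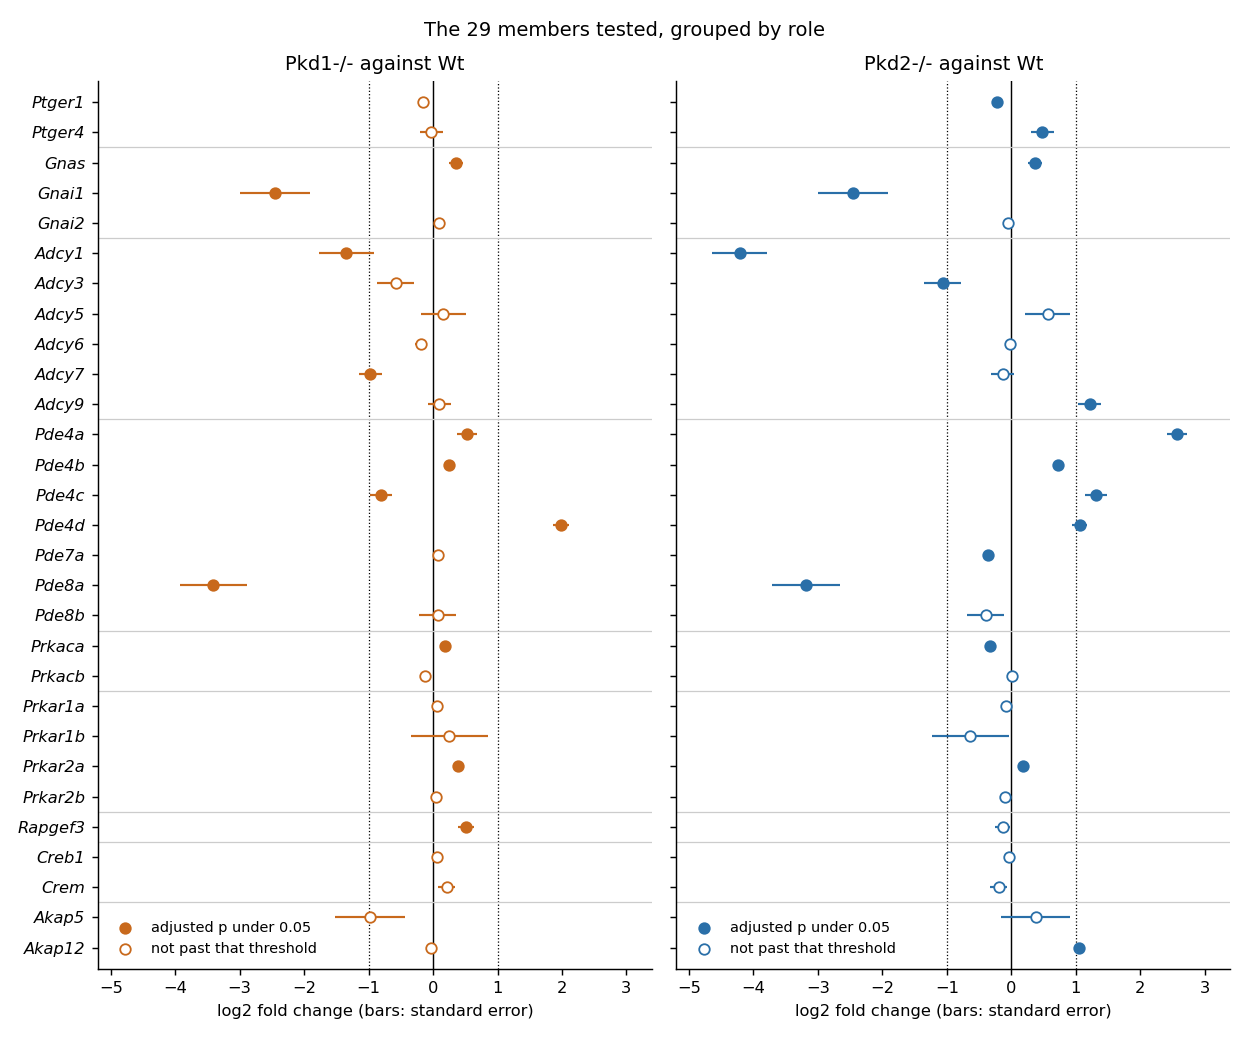
Log2 fold change (x axis) of the 29 tested members against Wt in Pkd1-/- cells (left) and Pkd2-/- cells (right), from 4 libraries per genotype. Bars show the standard error, filled points an adjusted p under 0.05 and dotted lines a log2 fold change of 1 in either direction. Pde4d lies to the right and Gnai1, Adcy1 and Pde8a lie to the left in both panels, while Pde4c lies on opposite sides.

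The promoters of the 4 members called in both mutants are shown because CREB, the nuclear end of the pathway, binds the cAMP response element TGACGTCA, and several genes of the pathway are known to be controlled by cAMP themselves. Sequences are the 250 bases before the start listed by RefSeq (GRCm38.p6), 5′ to 3′ on the gene's strand, and capitals mark the full element or its short forms TGACG and CGTCA, of which a full element contains both. They lie at chr13:108653927-108654176 (plus strand) for Pde4d, at chr7:81213015-81213264 (plus) for Pde8a, at chr11:7063183-7063432 (plus) for Adcy1, at chr5:18360414-18360663 (minus) for Gnai1 and, as the member with a full element, at chr11:109650699-109650948 (plus) for Prkar1a.
Pde4d: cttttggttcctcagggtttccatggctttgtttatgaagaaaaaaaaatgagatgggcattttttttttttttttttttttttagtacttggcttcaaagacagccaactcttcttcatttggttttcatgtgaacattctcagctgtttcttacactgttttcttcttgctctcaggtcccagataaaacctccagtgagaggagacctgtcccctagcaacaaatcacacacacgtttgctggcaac
Pde8a: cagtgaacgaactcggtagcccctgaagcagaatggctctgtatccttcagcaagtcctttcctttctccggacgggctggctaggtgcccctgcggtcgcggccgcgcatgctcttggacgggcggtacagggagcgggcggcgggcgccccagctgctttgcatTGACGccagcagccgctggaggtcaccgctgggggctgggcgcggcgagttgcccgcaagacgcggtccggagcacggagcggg
Adcy1: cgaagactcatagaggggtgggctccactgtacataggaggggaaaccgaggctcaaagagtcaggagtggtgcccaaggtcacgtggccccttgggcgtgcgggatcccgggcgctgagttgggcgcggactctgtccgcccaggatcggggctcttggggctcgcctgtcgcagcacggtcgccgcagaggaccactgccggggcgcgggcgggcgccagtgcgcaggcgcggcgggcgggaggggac
Gnai1: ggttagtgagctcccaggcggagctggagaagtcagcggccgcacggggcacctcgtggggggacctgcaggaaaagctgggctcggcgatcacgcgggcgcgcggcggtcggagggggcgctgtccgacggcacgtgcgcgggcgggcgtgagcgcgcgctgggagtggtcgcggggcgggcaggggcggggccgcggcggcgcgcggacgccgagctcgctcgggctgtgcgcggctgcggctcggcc
Prkar1a: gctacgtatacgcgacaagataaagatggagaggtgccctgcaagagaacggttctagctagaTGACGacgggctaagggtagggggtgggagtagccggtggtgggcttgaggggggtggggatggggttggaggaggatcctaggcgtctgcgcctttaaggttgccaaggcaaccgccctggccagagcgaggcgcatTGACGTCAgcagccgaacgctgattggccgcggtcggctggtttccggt
Pde8a held 1 short form, and none of the letters searched for was found in these windows of Pde4d, Adcy1 and Gnai1. The Pde4d window lies inside the gene, which begins at chr13:108449948, and other starts of Pde4d were not searched. Both strands of the longer windows from 250 bases before to 50 bases after each listed start were then searched. The full element was present in 1 of the 34 members with a row and a listed promoter, Prkar1a, where it began 49 bases before the start used here. Among all 27025 genes with a listed promoter it was present in 2.03%. A short form was present in 14 of the 34 members (41.2%) and in 23.0% of all genes. A gene with several listed starts had more than 1 chance to hold a match, and counted by promoter the shares were closer, at 18 of 70 (25.7%) for the members and 20.8% for all. No test was made of these shares.

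Of the receptors, which start the signal at the cell surface, only Ptger1 and Ptger4, both for prostaglandin E2, reached the minimum mean. Ptger4, the Gs-coupled EP4 receptor, was the highest per length in Wt with 235 normalized counts per kb of exons. Its counts in libraries 1 to 4 were 1264, 1329, 1592 and 2062 in Wt, 1388, 1396, 1592 and 1655 in Pkd1-/-, and 1581, 1991, 1865 and 3570 in Pkd2-/- cells. The genotypes overlapped, and library 4 of Pkd2-/- was far above the rest. The log2 fold change was -0.03 in Pkd1-/- (limma adjusted p = 0.939) and 0.48 ± 0.18 (SE) in Pkd2-/- cells (limma adjusted p = 0.0421, exact permutation p = 0.2). Without Pkd2-/- library 4 the latter was 0.24 (limma adjusted p = 0.15). It also missed the threshold without Wt library 1, 2 or 3, Pkd1-/- library 2 or 3, or Pkd2-/- library 2 (limma adjusted p = 0.136, 0.119, 0.0642, 0.0519, 0.053 and 0.0553). Library 4 of Pkd2-/- was also the highest of all 12 for the early response genes Fos (32232 normalized counts), Egr1 (54669) and Nr4a1 (9927). Within Wt, library 4 was likewise the highest for Ptger4, Fos, Egr1 and Nr4a1. Within Pkd1-/- it was the highest for Ptger4, Fos and Nr4a1 but not for Egr1. The cause was not tested.

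Ptger1, the EP1 receptor, is coupled mainly to calcium. It was among the tested members and is counted in the numbers above, but its values are not reported here. Ptger2 and Ptger3 were at 2 or less in every library. Avpr2, the vasopressin receptor, had 3 normalized counts over all 12 libraries. It shares 81.3% of its exon bases with Arhgap4 and the strand setting of the counting is not known here, so reads in the shared bases may not have been assigned to it and its count is uncertain. With so few counts, no difference in these 3 receptors was detectable at this depth.

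Among the G protein alpha subunits, Gnai1 (chr5:18265135-18360355, minus strand), an inhibitory subunit, was counted only in Wt. Its libraries 1 to 4 held 9, 1, 4 and 8 normalized counts in Wt and 0 in all 8 mutant libraries, so the groups did not overlap. Against a floor of 3 counts over the 4 libraries, Gnai1 was at least 7.33-fold lower in each mutant. It passed the filter on low values only through Wt, so that it had to differ, and its call is no support for a difference. With a pseudocount of 5 in place of 1 the log2 fold change was -0.99 in each mutant, under the fold threshold. In Pkd1-/- cells the 50 nearest expressed genes on chromosome 5 were shifted by a median of -0.36 on the log2 scale. Gnai2, the other inhibitory subunit measured, had 3429 normalized counts per kb in Wt.

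Gnai2 stood at 12686, 13430, 12950 and 12772 normalized counts in Wt, at 14285, 13439, 13811 and 13843 in Pkd1-/- and at 13073, 12283, 12661 and 12056 in Pkd2-/- libraries. Neither mutant passed against Wt (log2 fold changes 0.10 and -0.05), and Pkd2-/- was lower than Pkd1-/- by 0.15 on the log2 scale (limma adjusted p = 0.00715, groups not overlapping). Gnas, the stimulatory subunit, was higher in both mutants, at 338 ± 51.6 in Wt, 430 ± 37.0 in Pkd1-/- and 434 ± 34.7 normalized counts in Pkd2-/- cells (SD, n = 4). Its log2 fold changes were 0.35 (limma adjusted p = 0.0137) and 0.37 (limma adjusted p = 0.00679), with no overlap of either mutant with Wt. The first did not pass without Wt library 4 (0.26, limma adjusted p = 0.0558) or without Pkd1-/- library 3 (0.32, limma adjusted p = 0.0505). A share of 22.0% of the Gnas exon bases lies under Nespas or Gm20721, and in Pkd2-/- cells the 50 nearest expressed genes were shifted by a median of 0.43 on the log2 scale and chromosome 2 as a whole by 0.33. The part of these in the Gnas value was not tested.

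Of the 9 adenylyl cyclase genes, the enzymes that make cAMP, 6 were tested. Adcy6, a cyclase that calcium inhibits and the main form known in the collecting duct, made up 92.2 ± 0.65% of the cyclase sum per kb in Wt, 92.6 ± 1.09% in Pkd1-/- and 89.0 ± 0.52% in Pkd2-/- cells (SD, n = 4). Its counts were 2942, 3113, 3363 and 3693 in Wt, 2364, 3005, 2843 and 3381 in Pkd1-/-, and 3216, 3173, 2964 and 3615 in Pkd2-/- libraries. The genotypes overlapped, and the log2 fold changes of -0.18 ± 0.09 and -0.01 ± 0.09 (SE) did not pass the test (limma adjusted p = 0.151 and 0.921). Without Pkd1-/- library 4 the first was -0.26 and passed (limma adjusted p = 0.0366), as did the difference between the mutants (0.25, limma adjusted p = 0.0285). The less abundant cyclases moved apart in different ways.

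Adcy9 (chr16:4287529-4420498, minus strand), a widely expressed cyclase that is largely insensitive to forskolin, was called higher in Pkd2-/- cells. It had 100, 100, 100 and 85 normalized counts in Wt, 68, 143, 119 and 96 in Pkd1-/-, and 229, 190, 224 and 259 in Pkd2-/- libraries. Every Pkd2-/- library was above all others, whereas Pkd1-/- and Wt overlapped. The log2 fold change was 1.21 ± 0.17 (SE) in Pkd2-/- (limma adjusted p = 1.44e-05) and 0.10 in Pkd1-/- (limma adjusted p = 0.752), and the mutants differed by 1.12 (limma adjusted p = 2.97e-05). The share of Adcy9 in the cyclase sum per kb was 3.57 ± 0.56% in Wt and 8.08 ± 0.75% in Pkd2-/- cells. Without Pkd1-/- library 1 the difference between the mutants was 0.92, still past the p threshold and under that of the fold.

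Adcy1 (chr11:7063489-7178506, plus strand), a cyclase that calmodulin stimulates and that is best known from neurons, was called lower in each mutant. Its counts were 18, 25, 19 and 23 in Wt, 15, 10, 3 and 7 in Pkd1-/-, and 1, 0, 0 and 0 in Pkd2-/- libraries. The 3 genotypes did not overlap. In Pkd2-/- the log2 fold change was -4.21 ± 0.43 (SE, limma adjusted p = 1.87e-07), and the summed counts of Wt and Pkd2-/- stood in a ratio of 85 with a 95% exact interval of 14.9 to 3396, which covers counting error only. In Pkd1-/- it was -1.35 ± 0.43 (limma adjusted p = 0.0243). This latter call was lost without Wt library 2 (-1.27, limma adjusted p = 0.064), Wt library 4 (-1.31, 0.0587), Pkd1-/- library 3 (-0.98, 0.094) or Pkd1-/- library 4 (-1.31, 0.0539), and with a pseudocount of 0.5 (-1.42, 0.0516).

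Adcy3 (chr12:4133103-4213525, plus strand), the cyclase of olfactory neurons that also marks primary cilia, was called lower in Pkd2-/- cells. It had 47, 52, 58 and 66 normalized counts in Wt, 21, 37, 45 and 51 in Pkd1-/-, and 34, 39, 16 and 21 in Pkd2-/- libraries, and all Pkd2-/- libraries were below Wt. The log2 fold change was -1.07 ± 0.29 (SE, limma adjusted p = 0.00554) in Pkd2-/- and -0.58 (limma adjusted p = 0.154) in Pkd1-/- cells, and the difference between the mutants passed only without Pkd1-/- library 1 (-0.74, limma adjusted p = 0.0344, against 0.189 with all libraries). The fold fell just under the threshold without Wt library 4 (-0.98), Pkd2-/- library 3 (-0.85) or Pkd2-/- library 4 (-0.97). Cenpo, which shares 22.1% of the Adcy3 exon bases, was also lower, at 852 ± 54.0 in Wt and 715 ± 47.6 in Pkd2-/- cells, and its part was not tested.

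Adcy7, a cyclase stimulated by G protein beta-gamma subunits, was lower in Pkd1-/- cells, with 34.8 ± 8.06 against 68.5 ± 9.47 normalized counts in Wt (SD, n = 4, not overlapping). The log2 fold change of -0.97 (limma adjusted p = 3.61e-04) was just short of the fold threshold, and passed it without Wt library 1 (-1.05) or Pkd1-/- library 4 (-1.12). In Pkd2-/- cells Adcy7 was at 62.0 ± 4.08 and did not pass against Wt (limma adjusted p = 0.595), while the mutants differed by 0.84 (limma adjusted p = 6.82e-04). Adcy5 was at 5 to 18 counts per library in all genotypes and passed in no comparison with all libraries (in Pkd2-/- 0.88, limma adjusted p = 0.0427, without Wt library 4). Adcy2 and Adcy4 had at most 2 counts in a library.

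The Pde4 genes code for enzymes that cleave cAMP and not cyclic GMP and that PKA itself regulates. This family made up 4 of the 7 phosphodiesterases tested. It held 1 of the 2 phosphodiesterases called in Pkd1-/- and 3 of the 4 called in Pkd2-/- cells, shares that were not tested. Of the 7 phosphodiesterases tested, 5 passed the p threshold in Pkd1-/- (3 higher, 2 lower, against 27.1% of all genes) and 6 in Pkd2-/- cells (4 higher, 2 lower, against 42.3%). All 4 Pde4 genes rose in Pkd2-/- cells. In Pkd1-/- cells Pde4a, Pde4b and Pde4d rose and Pde4c fell.

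Pde4d (chr13:108449948-109953461, plus strand; its promoter window is printed above) had 113, 82, 101 and 112 normalized counts in Wt, 378, 420, 408 and 404 in Pkd1-/-, and 172, 248, 217 and 219 in Pkd2-/- libraries. The genotypes were fully separate, with Pkd1-/- highest and Pkd2-/- between it and Wt. Levels were 3.95 times those of Wt in Pkd1-/- (log2 fold change 1.98 ± 0.12, SE, limma adjusted p = 3.46e-10) and 2.10 times in Pkd2-/- cells (1.06 ± 0.12, limma adjusted p = 7.79e-07). The mutants differed by -0.92 (limma adjusted p = 3.62e-06). The value in Pkd2-/- lay close to the fold threshold and was under it without Wt library 2 (0.96) or Pkd2-/- library 2 (0.99).

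Pde4a (chr9:21165714-21213248, plus strand) showed the reverse order of the mutants. It had 34, 51, 38 and 35 normalized counts in Wt, 63, 58, 53 and 53 in Pkd1-/-, and 238, 222, 218 and 271 in Pkd2-/- libraries, again without overlap. The level in Pkd2-/- was 6.01 times that of Wt (log2 fold change 2.57 ± 0.15, SE, limma adjusted p = 7.9e-11), the largest rise among the members called. In Pkd1-/- the log2 fold change was 0.53 ± 0.15 (limma adjusted p = 0.0126), and the mutants differed by 2.04 (limma adjusted p = 1.61e-09).

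Pde4c (chr8:70723720-70751186, plus strand), a gene known to respond to HNF-1beta in kidney tubules, moved in opposite directions. Counts were 50, 55, 62 and 55 in Wt, 31, 32, 35 and 27 in Pkd1-/-, and 149, 101, 160 and 158 in Pkd2-/- libraries. Every Pkd1-/- library was below and every Pkd2-/- library above the range of Wt. The log2 fold change was -0.81 ± 0.17 (SE) in Pkd1-/- (limma adjusted p = 0.0012) and 1.32 ± 0.17 in Pkd2-/- cells (limma adjusted p = 3.68e-06). The difference between the mutants was 2.13 (limma adjusted p = 5.09e-09).

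**Figure D2:**
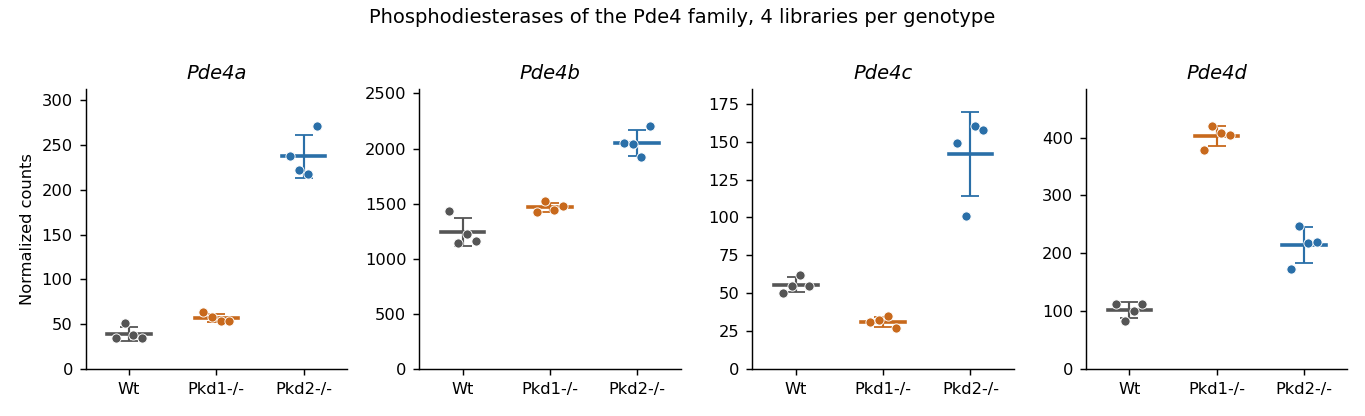
Normalized counts (y axis, from 0) of the 4 Pde4 genes in each of the 4 libraries of Wt, Pkd1-/- and Pkd2-/- cells. Points are libraries, horizontal lines means and bars the SD. Pde4d is highest in Pkd1-/- (378 to 420), and Pde4a, Pde4b and Pde4c are highest in Pkd2-/- cells.

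Pde4b was by far the most abundant of the family and changed least in ratio. It had 1430, 1147, 1225 and 1165 normalized counts in Wt, 1424, 1521, 1444 and 1481 in Pkd1-/-, and 2046, 2044, 1920 and 2206 in Pkd2-/- libraries. Pkd1-/- overlapped Wt and Pkd2-/- did not. The log2 fold changes were 0.25 (limma adjusted p = 0.00761) and 0.73 (limma adjusted p = 3.16e-08).

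Summed per kb of exons, the family rose from 141 ± 11.9 normalized counts per kb in Wt to 185 ± 5.1 in Pkd1-/- and 269 ± 15.2 in Pkd2-/- cells (SD, n = 4, no test). Its make-up differed between the mutants. Pde4d took 6.02 ± 0.73% of the sum in Wt, 18.1 ± 0.42% in Pkd1-/- and 6.65 ± 1.07% in Pkd2-/-, whereas Pde4a took 3.70 ± 0.95%, 4.00 ± 0.39% and 11.5 ± 0.53%. The share of Pde4b was 83.2 ± 1.6%, 74.9 ± 0.49% and 72.4 ± 1.43% in the same order. Within all phosphodiesterases listed, the Pde4 share was 10.1 ± 0.88% in Wt, 12.3 ± 0.17% in Pkd1-/- and 21.6 ± 1.1% in Pkd2-/- cells, and no library of Pkd2-/- lay under 20.5%. These lengths are unions of all annotated exons, so a gene with many alternative starts, as Pde4d has, is scored low by them.

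**Figure D3:**
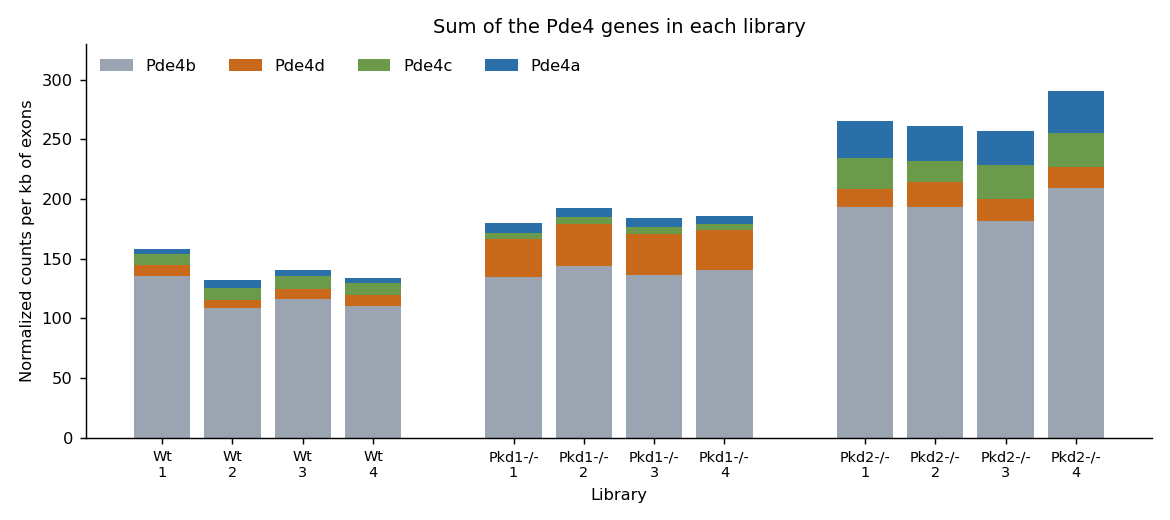
Sum of the 4 Pde4 genes in normalized counts per kb of exons (y axis, from 0) for each library, with a colour for each gene. Pde4b forms most of every bar, Pde4d is widest in the Pkd1-/- bars and Pde4a and Pde4c in the Pkd2-/- bars.

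Of the other phosphodiesterases tested, Pde7a and Pde8a were lower in Pkd2-/- cells. Pde7a, a high-affinity cAMP phosphodiesterase that rolipram does not inhibit, was the highest per length of the phosphodiesterases measured, with 89.2 ± 0.93% of the phosphodiesterase sum in Wt and 78.2 ± 1.14% in Pkd2-/- cells. Its counts were 9692, 8915, 9602 and 10441 in Wt, 10092, 10429, 10009 and 10233 in Pkd1-/-, and 6868, 7613, 7077 and 8698 in Pkd2-/- libraries. All Pkd2-/- libraries were below the others, and the log2 fold change was -0.36 ± 0.06 (SE, limma adjusted p = 1.36e-04). In Pkd1-/- it was 0.08 (limma adjusted p = 0.409).

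Pde8a (chr7:81213596-81334533, plus strand), another high-affinity enzyme, whose promoter window held a short form of the response element, was called lower in each mutant. It had 19, 33, 21 and 22 normalized counts in Wt, 2, 2, 0 and 2 in Pkd1-/-, and 4, 0, 1 and 4 in Pkd2-/- libraries. Neither mutant overlapped Wt. The log2 fold changes were -3.41 ± 0.53 (SE, limma adjusted p = 5.98e-05) and -3.19 ± 0.53 (limma adjusted p = 6.49e-05). Summed counts stood in a ratio of 15.8 for Wt to Pkd1-/- (95% exact interval 7.01 to 44.2) and of 10.6 for Wt to Pkd2-/- (5.33 to 23.8). Its relative Pde8b was at 9 to 25 counts per library and passed in no comparison. Pde1a, Pde1c, Pde3a, Pde3b and Pde10a had at most 4 counts in any library, and differences in them were not detectable at this depth.

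Taken as sums per kb, the cyclases were at 524 ± 48.9 in Wt, 461 ± 67.9 in Pkd1-/- and 537 ± 43.8 normalized counts per kb in Pkd2-/- cells, and the phosphodiesterases at 1397 ± 80.5, 1505 ± 27.7 and 1248 ± 120 (SD, n = 4, no test). The ratio of cyclase to phosphodiesterase sums was 0.375 ± 0.028 in Wt, 0.306 ± 0.043 in Pkd1-/- and 0.431 ± 0.021 in Pkd2-/- cells. The range of Pkd1-/- (0.250 to 0.353) overlapped that of Wt (0.333 to 0.393), and the range of Pkd2-/- (0.419 to 0.463) lay above both. The ratio is one of RNA and mainly of Adcy6 to Pde7a, and says nothing of enzyme activity.

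**Figure D4:**
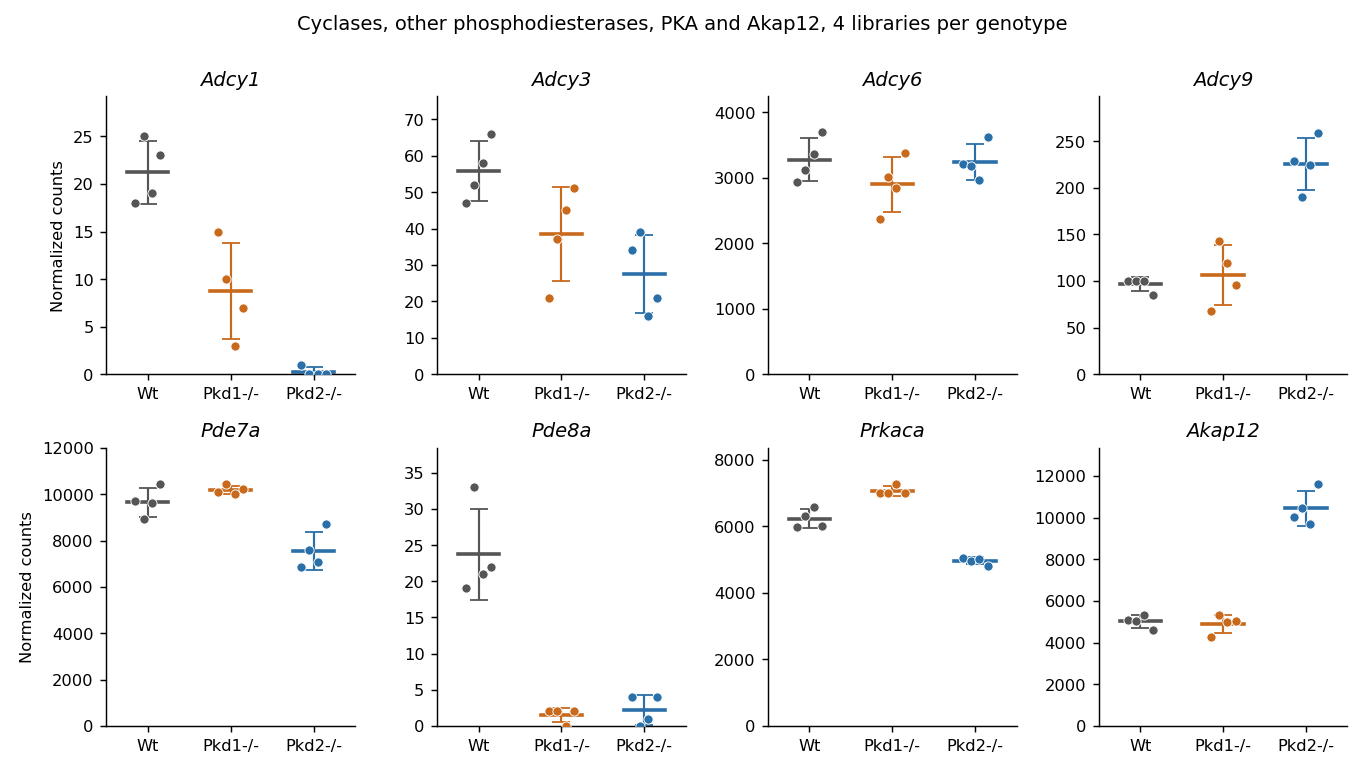
Normalized counts (y axis, from 0) of 4 cyclases, Pde7a, Pde8a, the PKA catalytic subunit Prkaca and the anchoring protein Akap12 in each library of Wt, Pkd1-/- and Pkd2-/- cells. Points are libraries, horizontal lines means and bars the SD. Adcy9 and Akap12 are high in Pkd2-/- cells alone, Prkaca is high in Pkd1-/- and low in Pkd2-/- cells, and Pde8a is near 0 in both mutants.

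No PKA subunit was called in any comparison, and all but Prkar1b were abundant. Prkaca, the catalytic gene with the higher level per kb of exons, moved in opposite directions. It had 5992, 6323, 6583 and 6004 normalized counts in Wt, 7006, 6992, 7275 and 6996 in Pkd1-/-, and 5040, 4973, 5033 and 4820 in Pkd2-/- libraries. The 3 genotypes did not overlap. Log2 fold changes were 0.18 ± 0.04 (SE, limma adjusted p = 0.00268) in Pkd1-/- and -0.33 ± 0.04 (limma adjusted p = 4.32e-06) in Pkd2-/- cells, and the mutants differed by -0.51 (limma adjusted p = 9.31e-09). Prkacb, the second catalytic gene, was at 9134 ± 513 in Wt, 8374 ± 221 in Pkd1-/- and 9183 ± 489 normalized counts in Pkd2-/- cells and passed against Wt in neither. The share of Prkaca in the catalytic sum per kb was 70.6 ± 1.78% in Wt, 74.8 ± 0.43% in Pkd1-/- and 65.6 ± 1.61% in Pkd2-/- cells. This share rests on unions of all annotated exons, 2488 bases for Prkaca and 8772 for Prkacb. In counts without regard to length, Prkacb was the higher in every genotype.

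Prkar1a, the type I regulatory subunit with the response element printed above, was the highest of the regulatory genes with 4364 normalized counts per kb in Wt. It stood at 19009, 18760, 18345 and 19310 in Wt, at 20617, 19309, 19501 and 19036 in Pkd1-/- and at 17408, 18520, 17757 and 17414 normalized counts in Pkd2-/- libraries. Neither mutant passed against Wt (log2 fold changes 0.06 and -0.09), and Pkd2-/- was lower than Pkd1-/- by 0.14 on the log2 scale without overlap (limma adjusted p = 0.00914). Prkar2a, a type II subunit held by anchoring proteins, was higher in both mutants, at 3454 ± 198 in Wt, 4489 ± 129 in Pkd1-/- and 3918 ± 214 in Pkd2-/- cells. Its log2 fold changes were 0.38 (limma adjusted p = 1.28e-05) and 0.18 (limma adjusted p = 0.00697), with no overlap of either mutant with Wt. Prkar2b and the weakly expressed Prkar1b, at 14 counts or less, passed in no comparison with all libraries. Prkar2b passed between the mutants without Wt library 1 (-0.14, limma adjusted p = 0.0243) or Pkd2-/- library 2 (-0.17, limma adjusted p = 0.0275). The regulatory to catalytic ratio of the sums per kb was 1.74 ± 0.09 in Wt, 1.72 ± 0.06 in Pkd1-/- and 1.94 ± 0.07 in Pkd2-/- cells.

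Rapgef3, the gene of Epac1, was higher in Pkd1-/- cells. It had 139, 152, 149 and 135 normalized counts in Wt, 167, 227, 228 and 204 in Pkd1-/-, and 152, 119, 133 and 122 in Pkd2-/- libraries. All Pkd1-/- libraries were above the others, with log2 fold changes of 0.51 ± 0.12 (SE, limma adjusted p = 0.00303) against Wt and of -0.13 in Pkd2-/- cells (limma adjusted p = 0.413). The mutants differed by -0.64 (limma adjusted p = 1.83e-04). Creb1, the CREB factor itself, had 2749, 2274, 2528 and 2832 normalized counts in Wt, 2624, 2787, 2556 and 2805 in Pkd1-/-, and 2297, 2590, 2305 and 2982 in Pkd2-/- libraries, which overlapped throughout. Its log2 fold changes were 0.06 ± 0.08 and -0.03 ± 0.08 (SE, limma adjusted p = 0.661 and 0.782). Crem, whose short product ICER represses CREB targets, was at 266 ± 39.9 in Wt, 308 ± 40.2 in Pkd1-/- and 233 ± 39.6 in Pkd2-/- cells. It passed only between the mutants (-0.41, limma adjusted p = 0.0168), where the libraries overlapped and the p rose to 0.0598, 0.054 and 0.0722 without Pkd1-/- library 1, Pkd1-/- library 3 or Pkd2-/- library 1.

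Akap12 (chr10:4266380-4359470, plus strand), also known as gravin, a scaffold that holds PKA near beta-adrenergic receptors and the membrane, was called higher in Pkd2-/- cells. It had 5092, 5023, 5324 and 4607 normalized counts in Wt, 4258, 5305, 4982 and 5022 in Pkd1-/-, and 10023, 10468, 9669 and 11608 in Pkd2-/- libraries. Every Pkd2-/- library was far above the others. The level was 2.08 times that of Wt (log2 fold change 1.06 ± 0.07, SE, limma adjusted p = 3.0e-10), against -0.04 in Pkd1-/- cells (limma adjusted p = 0.748), and the mutants differed by 1.10 (limma adjusted p = 1.4e-10). Of the called members it was the one with the highest level per kb, at 776 in Wt and 1616 normalized counts per kb in Pkd2-/- cells. Akap5 was at 12 counts or less per library. Its call between the mutants (1.35, limma adjusted p = 0.0486, groups overlapping) was lost when any single library other than Pkd1-/- library 2 or 4 was left out, and the lowest value was that without Pkd1-/- library 3 (0.73, limma adjusted p = 0.196).

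Further genes of the pathway were read from fixed lists, counting adjusted p under 0.05 over all genes, where the background was 13.6% higher and 13.5% lower in Pkd1-/- and 20.0% higher and 22.3% lower in Pkd2-/- cells. Many of the counts lie near these shares, and none was tested against them. Of 10 other receptors tested among 29 listed, 3 were higher and none lower in each mutant. Of those higher in Pkd1-/- cells, Calcr and Ptgfr passed the filter on low values only through Pkd1-/- and are no support for a difference. Of the 8 genes tested for prostaglandin synthesis and breakdown 2 were higher and 2 lower in Pkd1-/-, and 4 higher and 1 lower in Pkd2-/- cells. Of 5 other cyclases and phosphodiesterases none was higher and 1 lower in Pkd1-/-, and 1 was higher and 2 lower in Pkd2-/- cells, and of 5 PKA inhibitors and PKA-like kinases 1 was higher and 1 lower in each mutant. Of 20 G proteins and their regulators, 7 were higher and 2 lower in Pkd1-/-, and 6 were higher and 4 lower in Pkd2-/- cells. The 7 include Rgs2, which passed the filter only through Pkd1-/- and is no support for a difference. Among 16 other A-kinase anchoring proteins 3 were higher and none lower in Pkd1-/-, and 8 were higher and 1 lower in Pkd2-/- cells. The 8 include Akap2, which passed the filter only through Pkd2-/- and is likewise no support. Of the 11 genes of Epac and Rap signalling 2 were higher and 2 lower in Pkd1-/-, and 4 higher and 5 lower in Pkd2-/- cells. Among 14 CREB relatives and coactivators 3 were higher and 2 lower in Pkd1-/-, and 8 higher and 2 lower in Pkd2-/- cells. Of 20 genes known to be induced through CREB, 3 were higher and 4 lower in Pkd1-/-, and 9 higher and 4 lower in Pkd2-/- cells. Without Pkd2-/- library 4 the last numbers were 8 and 4, but only 4 of these 20 genes then passed the fold threshold as well, in place of 7. Of all genes, 1698 of 18554 then passed both thresholds, in place of 1785 of 18552 (9.62%). Cftr, which passed the filter on low values only through Wt, is among the lower genes in both settings.

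The medians of the log2 fold changes in the last 2 lists were -0.01 and -0.03 in Pkd1-/- and 0.14 and 0.35 in Pkd2-/- cells, beside the 0.01 and -0.01 over all genes. Without Pkd2-/- library 4 the median of the CREB-induced genes was 0.20 in place of 0.35. Arrb1, Nr4a2 and Cftr were the genes of these lists called in the same direction in each mutant. Arrb1, beta-arrestin 1, which uncouples activated receptors from G proteins, had 16, 8, 15 and 13 normalized counts in Wt, 0, 0, 0 and 1 in Pkd1-/-, and 3, 5, 8 and 4 in Pkd2-/- libraries. The fall was clear in Pkd1-/- (-3.52, limma adjusted p = 2.72e-06), whereas Pkd2-/- overlapped Wt (-1.25, limma adjusted p = 0.0209) and did not pass without Pkd2-/- library 4 (limma adjusted p = 0.0539). Nr4a2, an orphan nuclear receptor and early response gene, had 772, 667, 697 and 723 in Wt, 2418, 2489, 2473 and 2378 in Pkd1-/-, and 1179, 1373, 1330 and 2788 normalized counts in Pkd2-/- libraries. Its log2 fold changes were 1.77 (limma adjusted p = 1.99e-07) and 1.13 (limma adjusted p = 2.46e-05), the latter 0.85 and so under the fold threshold without Pkd2-/- library 4. Cftr, the PKA-gated chloride channel, had 46, 34, 23 and 31 normalized counts in Wt, 6, 0, 0 and 0 in Pkd1-/-, and 1, 0, 0 and 0 in Pkd2-/- libraries. Cftr passed the filter on low values only through Wt, so these values are a description and its call is no support for a difference.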

How the data were processed

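Total RNA of 12 libraries was sequenced with standard Illumina libraries. The authors used Trim Galore for trimming, HISAT2 for alignment (GRCm38), htseq-count for gene counts and DESeq2 for the size factors by which these were divided. The deposited values are these normalized counts rounded to whole numbers and are handled as a score, not as raw counts, so that no count model was run. The strand setting of the counting is not given in the sources used here.

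Reads per library were estimated from the spacing of the rounded values, where 1 read was worth 0.886 to 1.13 normalized counts. Gene names, exons and neighbours came from GENCODE M21 (GRCm38), which held 47223 of the 47642 genes. Genes with a mean of at least 1 were tested with limma 3.58.1 (R 4.3.3) on log2(normalized count + 1), with a mean-variance trend, all 3 genotypes in 1 model, two-sided, and Benjamini-Hochberg adjustment over all 18552 genes. The pseudocount makes fold changes of weakly expressed genes too small. Exact permutation tests of 4 against 4 libraries were two-sided and cannot go below p = 0.0286. Ratios of summed counts carry exact 95% intervals, which treat normalized counts as reads. limma was tested on simulated data.

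Members and lists were chosen with earlier results of these data known. Values per library are given for members called against Wt and for the highest per kb in each role, and other pathway genes are named where called in both mutants. Replicate numbers did not pair the libraries as a whole, by the correlation of deviations between same-numbered libraries (2 of 12 pairs over 0.1). Library 4, however, correlated best with its own number in each pair of genotypes. Its correlations were 0.088 for Wt and Pkd1-/-, 0.200 for Wt and Pkd2-/- and 0.167 for the mutants. The cause was not tested. The values of Ptger1 are not reported here, since their reading needs an item that is left out.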

Additional observations from a re-analysis of the deposited data

Results flagged for a closer look

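Over 85 groups of 4 libraries among the tested members, 4 had a library whose gap to the nearest other exceeded the 95% limit of Dixon's test, and chance alone flags about 1 group in 20. Prkaca stood at 7275 normalized counts in Pkd1-/- library 3, where the others were at 6992 to 7006, a distance that is small beside the difference from Wt. Adcy9 was at 85 in Wt library 4 against 100 in the other three libraries of Wt. Adcy1 was at 1 in Pkd2-/- library 1 against 0 in the rest, and Pde8a at 0 in Pkd1-/- library 3 against 2 in the rest, values that rest on very few reads.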

How the results depend on the processing

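The number of members called in Pkd1-/- cells was 4 and became 2 with a minimum mean of 10, because fewer members enter. Leaving out a library gave 3 to 5 members called in Pkd1-/-, 8 to 9 in Pkd2-/- and 4 to 6 between the mutants, and 10 to 13, 15 to 17 and 15 to 18 by the adjusted p alone. Over all genes, of which 18534 to 18574 were then tested, 1095 to 1164, 1698 to 1793 and 2061 to 2186 were called. By the adjusted p alone the numbers over all genes were 4314 to 5266, 7230 to 7921 and 8023 to 8625. With the replicate block, the members called were 4, 9 and 6 and those past the p threshold 14, 16 and 19. Of all 18552 genes, 1170, 1790 and 2183 were then called. Past the p threshold were 5322, 8048 and 8782, in place of 5020, 7852 and 8588 without the block. Since 4 of 12 libraries correlated best with their own number, a pairing of all libraries is not borne out. Library 4 did so in each pair of genotypes. Adcy6 passed with the block in Pkd1-/- (adjusted p = 0.0249) and between the mutants (0.0239). Over 17 members named by rule, 394 of 402 single values kept their direction and side of the p threshold under the alternatives with all libraries, 5 lost it, 3 gained it and 0 reversed. With a library left out the numbers were 581, 14, 3 and 14 of 612. Reversals concerned values near 0, which ranged in Pkd1-/- from -0.12 to 0.11 for Ptger4, from -0.0618 to 0.292 for Adcy9, from -0.0048 to 0.10 for Creb1 and from -0.0782 to 0.0275 for Akap12, in Pkd2-/- from -0.112 to 0.0137 for Creb1 and from -0.0678 to 0.0449 for Adcy6, and between the mutants from -0.17 to 0.69 for Pde8a. Causes were not tested. Low counts limit the statements on Gnai1, Adcy1, Pde8a and Akap5.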

Other observations

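Several genes of the wider pathway that the rule for named genes left out are given here. They were chosen after their values were seen. Slco2a1, the prostaglandin transporter that takes prostaglandin E2 up, had 274 to 329 normalized counts in Wt, 432 to 544 in Pkd1-/- and 2546 to 2916 in Pkd2-/- libraries, with a log2 fold change of 3.18 in Pkd2-/- cells (limma adjusted p = 4.35e-16). Abcc4, an export pump for cAMP and prostaglandins, had 793 to 978 in Wt, 600 to 784 in Pkd1-/- and 2400 to 2961 normalized counts in Pkd2-/- libraries. It thus fell in Pkd1-/- (-0.43, limma adjusted p = 9.31e-04) and rose in Pkd2-/- cells (1.64, limma adjusted p = 2.05e-11). Pkia, which inhibits the PKA catalytic subunit directly, fell in both mutants, from 1276 to 1508 in Wt to 842 to 899 in Pkd1-/- and 301 to 417 in Pkd2-/- libraries (log2 fold changes -0.71 and -2.10). Pkig, its relative, was higher in both (0.22 and 0.40, limma adjusted p = 0.0134 and 5.47e-05). Adora1, the inhibitory adenosine receptor, was at 1979 to 2112 in Wt, 2025 to 2094 in Pkd1-/- and 3500 to 3839 in Pkd2-/- libraries. Rgs2, which shortens G protein signals, had 22 to 34 normalized counts in Pkd1-/- libraries, 0 in all of Wt and at most 1 in Pkd2-/- libraries. Since Rgs2 passed the filter on low values only through Pkd1-/-, its values are a description.

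Of the 20 tested genes known to be induced through CREB, 9 passed higher (background 20.0%) and 4 lower (background 22.3%) in Pkd2-/- cells. The early response gene Fos was among those higher, most of all in library 4. Fos had 4362 to 9992 normalized counts in Wt, 5078 to 8426 in Pkd1-/-, and 14151, 18581, 18074 and 32232 in Pkd2-/- libraries. Sik1, a kinase that restrains the CREB coactivators, had 748 to 952 in Wt, 720 to 797 in Pkd1-/-, and 2537, 2815, 2648 and 3925 normalized counts in Pkd2-/- libraries. Without library 4 of Pkd2-/- the log2 fold changes were 1.25 for Fos (limma adjusted p = 5.03e-05) and 1.72 for Sik1 (limma adjusted p = 1.01e-12), so these differences did not rest on that library. The 4 CREB-induced genes lower in that setting were Bcl2 (-1.71), Bdnf (-0.68), Ppargc1a (-0.64) and Cftr, the last of which passed the filter only through Wt.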
